A study of Solanum tuberosum with 10 samples.

Results

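A group of 166 potato genes stood at least 8-fold higher in the explants sampled directly after ultrasound than in untreated explants sampled at the same moment. They were taken from 10485 gene models without a symbol that reached 10 CPM (counts per 1000000 gene-model counts of the library) in the ultrasonicated library at 0 h, among 39021 gene models and 40430 features in all. The ratio that chose them was (ultrasonicated CPM + 0.5) over (control CPM + 0.5) at 0 h, so their 0 h values are the choice itself and are given here without a test. The reference gene table held 0 of the 166 identifiers and 0 carry a description, so the genes are called by their identifiers and no function is given to any of them. The 22 gene models with a symbol were outside the choice.

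The study used single-node segments with a leaf, cut from 4-week-old in vitro plantlets of the cultivar Desirée. The treated arm (ultrasonicated) was sonicated in a beaker of liquid Murashige and Skoog medium, and both arms were then grown on that medium without growth regulators. Samples were taken directly after treatment (0 h), 24 h and 48 h later, and then 1 week and 4 weeks later, and RNA of 3 biological replicates was pooled into 1 library per arm and time, 10 libraries in all. Both arms carry the wound of a fresh cut, and the sources do not say whether control explants were immersed in liquid, so that immersion and ultrasound cannot be told apart. The tissue is labelled stem at 0 h and 24 h and stem and plantlet from 48 h on. These are bulk samples, in which fewer cells of a type and less RNA per cell cannot be told apart.

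Ultrasound in a liquid produces pressure waves, collapsing bubbles, shear and local heating. Plant cells meet mechanical, heat, oxidative and wounding stress with a fast wave of transcription in which regulators, chaperones and defence genes are typical members, and many such transcripts have short lives, so that their levels can fall again within hours. Other stress transcripts are kept up during repair and regrowth. Which of these classes the 166 genes belong to is not stated here, since the identifiers are not paired with names.

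Total counts per library ran from 122786170 to 161153911. The TMM factor, which scales a library by the bulk of its features, was 0.688 in the ultrasonicated 0 h library, 0.885 in its control and 0.975 to 1.14 in the other libraries. Features outside the gene models held 2.60% of the control 24 h library and 0.0464% to 0.519% of the others. From here on CPM is TMM-scaled. It is not corrected for gene length, so values are compared between libraries and not between genes. A run of 5 values in a sentence follows the order of sampling, from 0 h to 4 weeks.

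The 166 genes held 12.6% of the gene-model counts of the ultrasonicated 0 h library (95% exact interval 12.57 to 12.59, for counting error only) and 0.354% of its control's. Their share was 0.488% in control and 0.69% in ultrasonicated explants at 24 h, 0.651% and 0.8% at 48 h, 0.337% and 0.335% at 1 week, and 0.371% and 0.37% at 4 weeks. That the ultrasonicated 0 h library stood apart from all others, here and in the levels below, follows largely from the choice of the genes. From 1 week on the shares of the arms were nearly equal. The 10 genes with the most counts at 0 h alone took 4.02% of that library. The median member stood at 331 CPM there and at 6.47 CPM in control, against 10.5 and 6.35 CPM at 24 h, 15.4 and 10.1 CPM at 48 h, 4.09 CPM in both arms at 1 week, and 7.39 and 7.35 CPM at 4 weeks. Members over 1000 CPM numbered 49 in the ultrasonicated 0 h library, 1 in ultrasonicated explants at 24 h and 0 in each of the other 8.

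**Figure D1:**
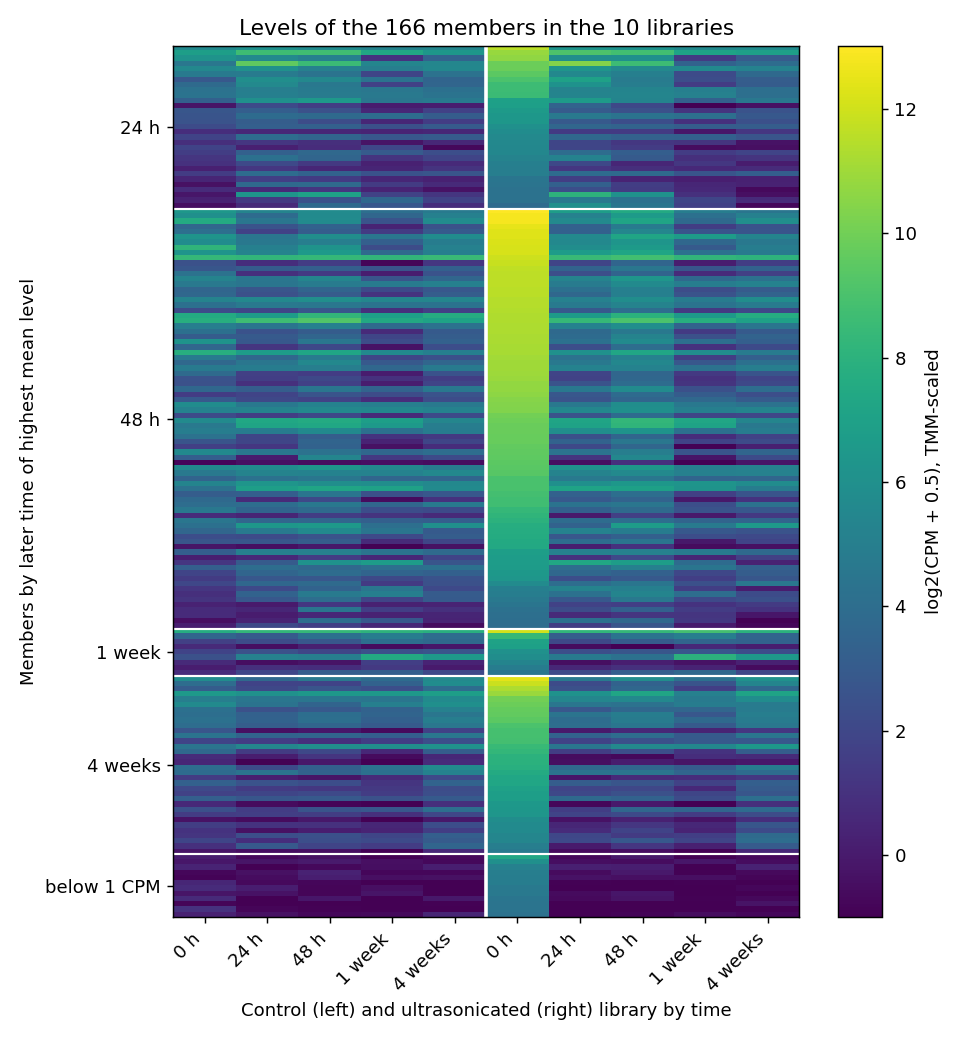
Levels of the 166 genes (rows) in the 10 libraries (columns, control left, ultrasonicated right), as log2(CPM + 0.5). Rows are grouped by the later time with the highest mean level, and within a group sorted by the ultrasonicated 0 h level. The ultrasonicated 0 h column stands out in nearly every row, and 156 of 166 genes have their highest value there. This follows largely from the choice of the genes.

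The size of the 0 h difference ran from 10.6-fold to 7241-fold on the TMM scale, with a median of 36.4-fold, and 41 genes exceeded 100-fold. On the same scale the median of all features at 0 h was a log2 ratio of 0.01. It was -0.35 when libraries were scaled by gene-model totals, as in the choice of the genes. Near the threshold, the last gene inside, PGSC0003DMG400015184 (chromosome 3, 50888577 to 50890118), had a ratio of 8.05 from 1.31 CPM in the control and 14.1 CPM in the treated arm, on the scale of the choice. The one before it, PGSC0003DMG400017389, had 8.17 (0.997 and 11.7 CPM). The first outside, PGSC0003DMG400010363, had 7.96 (11.6 and 96.1 CPM) and the next, PGSC0003DMG400020906, 7.94 (4.12 and 36.1 CPM).

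The gene with the largest ratio, PGSC0003DMG400024476 (chromosome 3, 53778612 to 53779610), was nearly silent in every library but 1. Its control libraries held 0.0972, 0.267, 0.187, 0.251 and 0.178 CPM, and its ultrasonicated libraries 704, 0.214, 1.45, 0 and 0.362 CPM. The 0 h value is 7241-fold above control, and no other library passed 1.45 CPM. Next in order was PGSC0003DMG400009255 (chromosome 11, 13518704 to 13519520), with 5.08, 1.28, 2.3, 0.0766 and 1.81 CPM in control explants and 3687, 3.13, 11.2, 0.59 and 2.39 CPM in ultrasonicated explants. It was 725-fold higher at 0 h, and ultrasonicated explants stayed the higher arm at each later time, by ratios of 2.45 (2.03 to 2.97), 4.87 (4.37 to 5.43), 7.7 (4.09 to 16) and 1.32 (1.13 to 1.55).

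Counts were largest at 0 h for PGSC0003DMG402028907 (chromosome 6, 37879145 to 37884226), which had 83.9, 40.1, 53.2, 17.2 and 26.2 CPM in control explants and 8265, 112, 184, 30.3 and 21.6 CPM in ultrasonicated explants. Its ultrasonicated level was the higher one through 1 week and slightly the lower one at 4 weeks. This gene overlaps another member, PGSC0003DMG401028907, on the same strand, with 795884 and 77568 counts in the ultrasonicated 0 h library, so reads of the shared stretch cannot be assigned with certainty. The next by counts, PGSC0003DMG400024644 (chromosome 3, 55148140 to 55152302), had 61.5, 14.2, 51.6, 12.1 and 33.3 CPM in control and 7115, 34.5, 99.2, 17.6 and 33.7 CPM in ultrasonicated explants. Its arms were level by 4 weeks, at a ratio of 1.01 (0.975 to 1.05).

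Most of the 0 h level was gone a day later. In ultrasonicated explants the 24 h level was a median 2.64% of the 0 h level (25th to 75th percentile 0.573% to 9.81%). It lay below 10% for 125 genes, below 1% for 56, and at 50% or more for 10. For 109 genes every later library of either arm was below 10% of the ultrasonicated 0 h level. The ultrasonicated 0 h library was the highest of all 10 for 156 genes (94%), a share that follows largely from the choice and stood at 27.1% among all 10485 gene models.

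In 10 genes another library was higher, and 7 of these had their highest value in ultrasonicated explants at 24 h. An example is PGSC0003DMG400010131, with 0.389, 74.8, 128, 2.86 and 1.7 CPM in control and 18.9, 261, 68, 1.39 and 0.258 CPM in ultrasonicated explants, whose 24 h values exceeded its 0 h value in both arms. The remaining 3 were highest in control explants at 48 h (PGSC0003DMG400013702), in ultrasonicated explants at 48 h (PGSC0003DMG400010388) and in ultrasonicated explants at 1 week (PGSC0003DMG400009514).

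Whether the arms still differed later is a question the choice did not touch, and it was asked at each time on the 163 members among 24421 features kept by a filter on low counts. With 1 library per arm and time there is no test. A gene counts as higher or lower when the whole 95% exact interval of its ratio, which covers counting error only, lies beyond 2-fold. At 24 h, 36 members (22.1%) were higher and 4 (2.45%) lower in ultrasonicated explants, against 5.2% and 7.15% of all features. At 48 h, 40 (24.5%) were higher and 7 (4.29%) lower, against 2.64% and 5.04% of all features. At 1 week the members' shares were above those of all features in both directions. There were 24 (14.7%) higher and 27 (16.6%) lower, against 6.74% and 10.4%. At 4 weeks 5 (3.07%) were higher and 13 (7.98%) lower, against 5.95% and 6.38%.

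The median log2 ratio of the members was 0.41 at 24 h (25th to 75th percentile -0.02 to 1.07) where that of all features was 0. It was 0.58 at 48 h (0.06 to 1.12) where all features stood at 0.05, 0.14 at 1 week (-0.72 to 0.64) against 0.05, and -0.09 at 4 weeks (-0.46 to 0.32) against -0.01. Members above control made up 72.4% at 24 h and 78.5% at 48 h, where all features gave 49.9% and 54.1%. At 1 week and 4 weeks they made up 56.4% and 43.6%, where all features gave 53.7% and 49.6%. In 29 members (17.8%) ultrasonicated explants were the higher arm at all 4 later times, as in 7.76% of all features, and in 2 (1.23%) they were the lower arm at all 4, as in 6.13%.

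**Figure D2:**
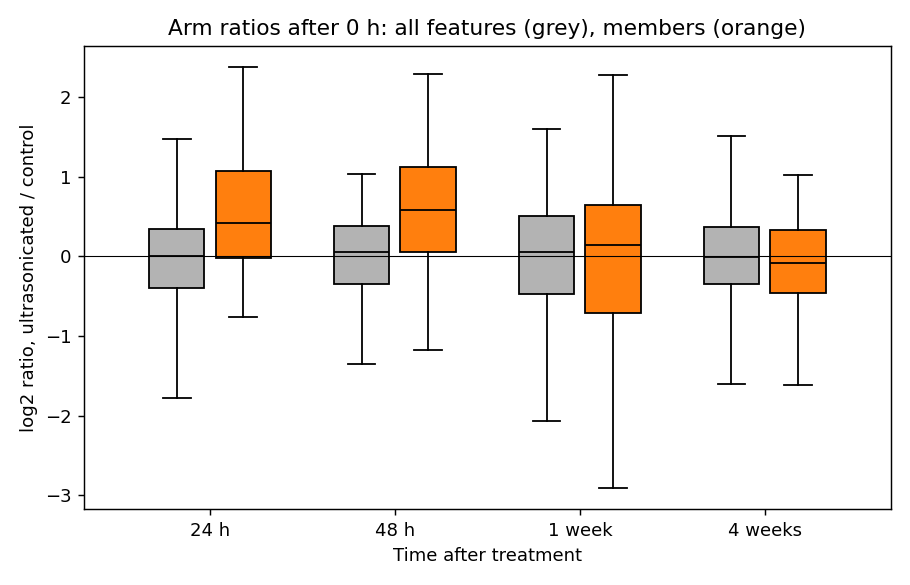
Log2 ratio of ultrasonicated over control level at the 4 later times, for 24421 features (grey) and 163 members (orange). Boxes span the 25th to 75th percentile, the line is the median and whiskers reach the 5th and 95th percentiles. The members' box lies above that of all features at 24 h and 48 h, with medians of 0.41 and 0.58.

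The members higher at one time were partly those higher at the next. Of the 36 at 24 h and the 40 at 48 h, 18 were shared (50% and 45%). Between 48 h and 1 week 14 were shared (35% of 40 and 58.3% of 24). The same overlap was not computed over all features, so these counts describe the members alone. The gene furthest above control at 48 h by its interval was PGSC0003DMG400024476, the one with the largest 0 h ratio, at 1.45 against 0.187 CPM and a ratio of 7.74 (5.37 to 11.5). Both values are low beside the 704 CPM it had in ultrasonicated explants at 0 h.

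Up to 1 week the later ratio between the arms was widest in the genes with the largest 0 h ratio. Over 100-fold on the scale of the choice, 29 members had median log2 ratios of 0.99, 1.60, 0.98 and 0.10 at the successive later times, and 20 of them were higher beyond 2-fold at 48 h. Of all features 2.64% were. This class holds all 6 genes of a run of neighbours on chromosome 9 and several of a run on chromosome 6, described below. The split of counts within such runs is uncertain if their sequences are near-identical, so the 29 may not be separate observations. From 32 to 100-fold, 34 members had 0.66, 0.69, 0.08 and 0.00, with 8 higher at 48 h. From 16 to 32-fold, 41 kept members had 0.31, 0.56, -0.14 and -0.15, again with 8 higher. In the lowest class, 8 to 16-fold, 59 kept members had 0.25, 0.34, 0.16 and -0.18, with 4 higher. Spearman's rho between the 0 h ratio and the later log2 ratio over the members was 0.23 for 24 h, 0.44 for 48 h, 0.18 for 1 week and 0.13 for 4 weeks, given as a description since the points share their libraries.

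The later excess was small beside the 0 h level. For the 49 members over 1000 CPM at 0 h, the ultrasonicated minus control level came to a median 0.237% of the 0 h level at 24 h (25th to 75th percentile 0.0686% to 0.471%) and 0.604% at 48 h (0.345% to 1.12%), above 0 in 44 of 49 at both times. At 1 week it was 0.0635%, above 0 in 36, and at 4 weeks 0.0205%, above 0 in 29. The excess was thus larger at 48 h than at 24 h. Whether reads of the 0 h library account for any of it was not tested.

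**Figure D3:**
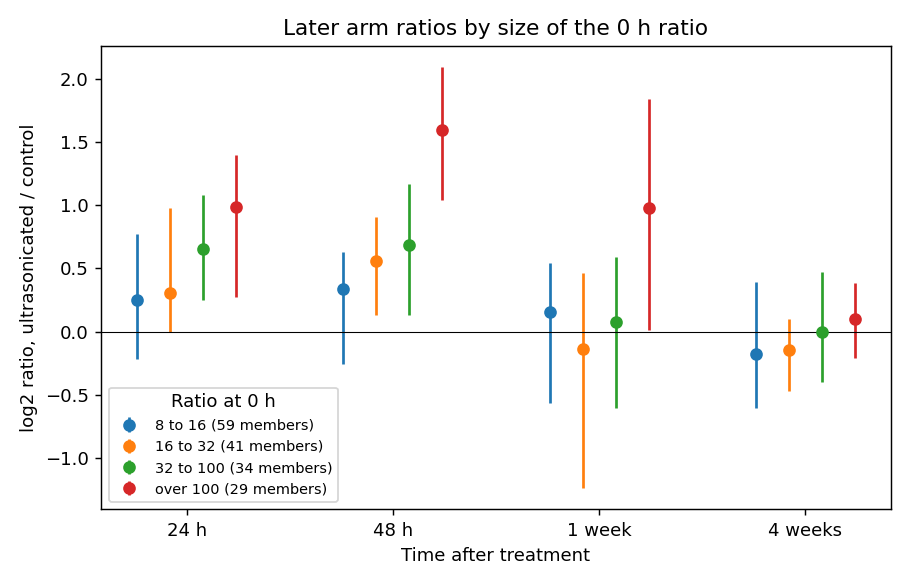
Median log2 ratio of ultrasonicated over control level (points) with the 25th to 75th percentile (bars) at the 4 later times, for members split by their 0 h ratio. The class over 100-fold (29 members) is the highest at 24 h, 48 h and 1 week, with a median of 1.60 at 48 h, and all classes lie near 0 at 4 weeks.

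A test over the later times used the 8 libraries from 24 h on, with time as a block, so the spread is that between pooled libraries of the 4 times and not between plants. It asks whether the arms differed in common over these times. For 162 members among 24607 features tested, edgeR's quasi-likelihood test with Benjamini-Hochberg adjustment called 0 members (0% of all features), and the smallest adjusted p was 0.903 among members and 0.621 over all. At an unadjusted p under 0.05 there were 31 members higher (19.1%; 1.82% of all features) and 2 lower (1.23%; 3.08% of all features). The median log2 difference was 0.25 for members and 0.04 for all, and 109 members (67.3%) stood above 0, as did 55.5% of all features. limma-voom called 0 members, and DESeq2 called 5 (3.09%), all higher, where 0.0813% of all features were called higher. Without the time block the 31 became 4 (2.47%; 0.232% of all features) and the 2 became 0 (0%; 0.902%). The 31 became 10 without the pair at 48 h (6.13%; 1.45% of all features). They became 26 without that at 1 week (16%; 0.885%) and 37 without that at 4 weeks (22.8%; 2.97%). Without the pair at 24 h, or either of its libraries, 15 members were higher (9.26% without the pair; 1.02% of all features) and 10 lower (6.17%; 2.65% of all features). Leaving out ultrasonicated 48 h gave 10 higher (6.13%; 1.47% of all features), and leaving out control 48 h gave 12 (7.36%; 1.53%).

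The 2 members with the smallest p above control had the same direction in all 4 pairs. For PGSC0003DMG400000444 (chromosome 11, 38747621 to 38755593) the levels were 37.8, 22.3, 40.7, 5.94 and 12 CPM in control and 3177, 37.7, 81.7, 13.4 and 18 CPM in ultrasonicated explants. Ratios at the later times were 1.69 (1.61 to 1.77), 2.01 (1.95 to 2.07), 2.25 (2.08 to 2.44) and 1.5 (1.42 to 1.6), a common log2 difference of 0.89 (SE 0.16, edgeR adjusted p = 0.903). By DESeq2 it was 0.86 with an adjusted p of 0.00418. For PGSC0003DMG400009509 (chromosome 3, 49723607 to 49727054) control explants had 189, 22, 53.5, 5.49 and 52.8 CPM and ultrasonicated explants 7111, 47.8, 144, 13.5 and 59.3 CPM. This gene's log2 difference was 1.02 (SE 0.23, edgeR adjusted p = 0.903), and its ratio had come down to 1.12 (1.09 to 1.16) at 4 weeks.

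Below control, the smallest p belonged to PGSC0003DMG400007804 (chromosome 12, 1475436 to 1476348), with 1.42, 7.05, 3.15, 2.35 and 11.6 CPM in control and 31.2, 0.52, 1.84, 0.66 and 7.59 CPM in ultrasonicated explants. Its log2 difference was -1.67 (SE 0.56, edgeR adjusted p = 0.903). Ultrasonicated explants were the higher arm at 0 h and the lower one at all 4 later times, with the ratio at its lowest, 0.0738 (0.0567 to 0.0945), at 24 h. The other was PGSC0003DMG400009529 (chromosome 8, 2356869 to 2358058), with 0.283, 13.3, 13.7, 2.19 and 1.07 CPM in control and 20.4, 9.48, 2.44, 0.927 and 0.779 CPM in ultrasonicated explants (log2 -1.15, SE 0.40, edgeR adjusted p = 0.903). In control it stood at 13.3 CPM at 24 h and 13.7 CPM at 48 h, whereas in ultrasonicated explants it had come down to 2.44 CPM by then.

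An interaction term, added after the values were seen, asked whether the arm difference was another at 1 week and 4 weeks than at 24 h and 48 h. By edgeR it called 0 members (0% of all features; smallest adjusted p = 0.854) and by limma-voom 0. DESeq2 called 8 of 162 members, all lower at the late times, and 213 of 24607 features in either direction. At an unadjusted p under 0.05 edgeR had 22 members lower at the late times (13.6%; 2.32% of all features). It had 3 of 162 members higher, near the background of 497 of 24607 features. The difference was below 0 in 123 of 162 members, with a median of -0.46, where all features stood at 0.02.

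A set of 12 members (7.36%; 1% of all features) was higher beyond 2-fold at 24 h and lower beyond 2-fold at 1 week, a pattern singled out after its values were seen. In 10 of the 12 the control level at 48 h or 1 week was above that at 24 h, while in 10 the ultrasonicated level came down from 24 h to 48 h. Their median level was 2.88 CPM in the control and 20.8 CPM in the treated arm at 24 h, and 8.64 and 2.61 CPM at 1 week. These counts and levels follow in part from how the 12 were picked. They were not computed for the other features with the same pattern. The group includes PGSC0003DMG400002321 (chromosome 7, 32977278 to 32979126), with 1.8, 7.6, 71.1, 107 and 5.94 CPM in control and 107, 161, 110, 14.2 and 0.779 CPM in ultrasonicated explants. In control this gene was highest at 1 week, and in ultrasonicated explants at 24 h, so that the ratio went from 21.2 (19.9 to 22.7) at 24 h to 0.133 (0.127 to 0.139) at 1 week.

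The furthest above control of all members at 24 h was another of the 12, PGSC0003DMG400001372 (chromosome 2, 45423918 to 45424907), with 0.23, 1.1, 13.4, 6.38 and 1.28 CPM in control and 14.6, 65.2, 21.1, 2.77 and 0.0981 CPM in ultrasonicated explants. Its ratio was 59.1 (49.7 to 70.7) at 24 h, 1.58 (1.5 to 1.67) at 48 h and 0.0768 (0.043 to 0.128) at 4 weeks. Control explants were highest at 48 h, a time step after the treated arm. A similar course was seen in PGSC0003DMG400018080 (chromosome 3, 52957787 to 52961213), with 1.87, 3.8, 10, 22.1 and 3.82 CPM in control and 32.1, 38.6, 32.7, 2.44 and 0.54 CPM in ultrasonicated explants, whose ratio was 10.2 (9.23 to 11.2) at 24 h and 0.111 (0.0988 to 0.124) at 1 week. In PGSC0003DMG400018965 (chromosome 12, 5376181 to 5377734), the furthest below control at 4 weeks, control explants had 0.239, 0.802, 15.4, 6.63 and 0.83 CPM and ultrasonicated explants 15.9, 17.4, 12.2, 1.95 and 0.0245 CPM. The last of these values is a few counts, since 3 counts are 0.0184 CPM in that library. Among the 12 also stood PGSC0003DMG400027636 (chromosome 7, 51716843 to 51718268), the furthest below control at 1 week, with 0.371, 3.98, 2.37, 0.564 and 0.586 CPM in control and 119, 10.4, 3.53, 0 and 0.264 CPM in ultrasonicated explants. Its 0 at 1 week allows up to 3 counts, or 0.0211 CPM.

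The other members furthest from control at a single time were mostly at low levels. PGSC0003DMG400019693 (chromosome 4, 55560237 to 55562248) was furthest below at 24 h, with 1.12, 0.602, 0.0606, 0.244 and 0 CPM in control and 25.2, 0.00765, 0, 0 and 0.092 CPM in ultrasonicated explants. At 48 h the place was taken by PGSC0003DMG402026923 (chromosome 6, 53643730 to 53644277), with 1.1, 0.217, 0.672, 0.167 and 0.389 CPM and 124, 0.168, 0.0137, 1.02 and 0.607 CPM, a gene that overlaps another member on the opposite strand. Both were under 1.1 CPM in every library after 0 h. Furthest above at 1 week was PGSC0003DMG400017098 (chromosome 9, 31745004 to 31745667), with 0 counts in control at that time, 0.937, 0, 0.441, 0 and 1.16 CPM in control and 250, 0.229, 0.554, 0.337 and 0.423 CPM in ultrasonicated explants. At 4 weeks it was PGSC0003DMG400027025 (chromosome 6, 53598519 to 53599134), with 3.5, 12.4, 13.6, 2.09 and 4.97 CPM in control and 54.2, 15.4, 21.5, 4.9 and 23.2 CPM in ultrasonicated explants and a ratio of 4.66 (4.31 to 5.05). It is the 1 named here above 2 CPM in all libraries.

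By the course of their mean level after 0 h, 80 members (48.2%) were highest at 48 h, 31 (18.7%) at 24 h, 34 (20.5%) at 4 weeks and 9 (5.42%) at 1 week, while 12 (7.23%) stayed below 1 CPM in all 8 later libraries. Among the 10485 gene models the shares were 15% at 48 h, 36.8% at 24 h, 28.6% at 4 weeks, 19.3% at 1 week and 0.258% below 1 CPM. The single highest later library was ultrasonicated 48 h for 67 members (40.4%), as for 7.64% of the gene models. Those highest at 48 h also had the largest median in the ultrasonicated 0 h library, 1002 CPM with no correction for gene length, against 64.1 CPM for those highest at 24 h, 67.1 CPM at 1 week, 238 CPM at 4 weeks and 27.7 CPM for those that stayed low. These shares carry no test. The courses leave out the 0 h values, but both groups had to reach 10 CPM in the ultrasonicated 0 h library. Members could pass that limit through their 0 h rise alone, so their larger share below 1 CPM follows at least in part from the choice.

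Time was tested in the same 8 libraries, with both arms standing in for replicates of a time. The F-test over the 4 later times called 72 of 162 members (44.4%; 19.6% of all features; edgeR with Benjamini-Hochberg adjustment). This count depends on which libraries are fitted. Leaving out a pair gave 41 (48 h; 25.2% of members and 13.5% of all features), 41 (1 week; 25.3% and 15%) and 43 (4 weeks; 26.5% and 7.77%). Each library left out alone also lowered the count, both among members and over all features. From 24 h to 48 h, 0 members were called by edgeR (0% of all features), while 38 were higher at an unadjusted p under 0.05 (23.5%; 10.1% of all features) and 4 lower (2.47%; 7.43% of all features). The median log2 change was 0.55 for members and 0.04 for all features, limma-voom called 0 and DESeq2 called 17 higher (10.5%; 4.87% of all features) and 2 lower (1.23%; 3.27% of all features). With total counts as the scaling the medians were 0.67 for members and 0.17 for all features. Without ultrasonicated 48 h the medians were 0.2 for members and 0.04 for all features, and without control 24 h 0.54 and 0.06. In both fits fewer members, and fewer of all features, were higher at an unadjusted p under 0.05. The comparisons of each later time with 24 h share the 24 h libraries.

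At 1 week, 34 members had fallen from 24 h (21%; 6.16% of all features) and 5 had risen (3.09%; 6.06% of all features), with a median log2 change of -0.83 where that of all features was 0. Leaving out the pair at 48 h gave 22 lower (13.5%; 3.88% of all features) and 4 higher (2.45%; 3.57%). A single library left out at 24 h or 1 week gave fewer calls in both directions, among members and over all features. The members' median change was then -0.75 without ultrasonicated 1 week (-0.03 for all features) and -0.64 without ultrasonicated 24 h (0.01). It was -0.95 without control 1 week (-0.04) and -0.88 without control 24 h (0.04). At 4 weeks, 24 members stood lower than at 24 h (14.8%; 11.4% of all features) and 13 higher (8.02%; 8.33% of all features), with a median of -0.16 where that of all features was 0.05. These shares lie near those of all features. With total counts as the scaling the members' median turned to 0.01, where that of all features was 0.23. Leaving out the pair at 48 h gave 16 lower (9.82%; 7.25% of all features) and 10 higher (6.13%; 5.41%). A single library left out at 24 h or 4 weeks gave fewer calls in both directions, among members and over all features. Without ultrasonicated 4 weeks the median was -0.01 for members and for all features. Without ultrasonicated 24 h the medians were -0.08 and 0.05, without control 24 h -0.2 and 0.08, and without control 4 weeks -0.53 and 0.01.

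Among members highest at 24 h, PGSC0003DMG400015678 (chromosome 11, 1590553 to 1593526) had 23.4, 769, 374, 40.3 and 42.7 CPM in control and 936, 1355, 384, 10.1 and 15 CPM in ultrasonicated explants. Both arms were far above their 0 h control level at 24 h and 48 h. It fell by 5.71 on the log2 scale from 24 h to 1 week (SE 0.79, edgeR adjusted p = 0.00955). The next by level, PGSC0003DMG400014627 (chromosome 6, 547636 to 549844), had 114, 400, 426, 163 and 86.1 CPM in control and 1848, 548, 436, 140 and 120 CPM in ultrasonicated explants. It fell by 1.64 to 1 week (SE 0.27, edgeR adjusted p = 0.0144) and by 2.22 to 4 weeks (SE 0.27, edgeR adjusted p = 0.00578). The fall with the smallest p at every later time was that of PGSC0003DMG400006369 (chromosome 4, 60610154 to 60612270), with 13.7, 48.6, 23.8, 2.72 and 11.2 CPM in control and 390, 69.5, 30.3, 2.32 and 7.92 CPM in ultrasonicated explants. It fell by 4.56 from 24 h to 1 week (SE 0.34, edgeR adjusted p = 0.00453) and by 2.64 to 4 weeks (SE 0.31, edgeR adjusted p = 0.00538). At 48 h the log2 change of -1.10 did not pass (SE 0.30, edgeR adjusted p = 0.191).

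Of those highest at 48 h, PGSC0003DMG400004784 (chromosome 8, 52793968 to 52799142) had 327, 293, 328, 296 and 367 CPM in control and 3906, 365, 444, 299 and 261 CPM in ultrasonicated explants. Outside the ultrasonicated 0 h library it stayed within 261 to 444 CPM. The next, PGSC0003DMG400029787 (chromosome 12, 10203709 to 10207203), had 218, 412, 588, 172 and 140 CPM in control and 2584, 340, 536, 218 and 128 CPM in ultrasonicated explants. Its later levels followed time in both arms alike, highest at 48 h and lowest at 4 weeks, with a fall of 1.5 on the log2 scale from 24 h to 4 weeks (SE 0.25, edgeR adjusted p = 0.0116). The smallest p of a higher level at 48 h than at 24 h was that of PGSC0003DMG400020107 (chromosome 6, 58194667 to 58198707), with 188, 104, 293, 121 and 201 CPM in control and 2638, 98.9, 244, 96.2 and 207 CPM in ultrasonicated explants. Its log2 change was 1.43 (SE 0.22, edgeR adjusted p = 0.163), and both arms were more than 2-fold higher at 48 h.

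At 1 week the largest levels among genes highest at that time were those of PGSC0003DMG400002929 (chromosome 12, 3141945 to 3149731), with 202, 314, 319, 263 and 229 CPM in control and 4258, 297, 317, 450 and 245 CPM in ultrasonicated explants. It overlaps another member, PGSC0003DMG400039484, on the opposite strand, with 410056 and 299191 counts in the ultrasonicated 0 h library. The second was PGSC0003DMG400009514 (chromosome 3, 49841306 to 49842079), with 5, 35.7, 30.9, 179 and 91.1 CPM in control and 59.1, 26.7, 18, 259 and 95.6 CPM in ultrasonicated explants. This gene rose by 2.83 on the log2 scale from 24 h to 1 week (SE 0.36, edgeR adjusted p = 0.00793) and by 1.58 to 4 weeks (SE 0.34, edgeR adjusted p = 0.0231). Without the ultrasonicated library at 24 h the rise to 1 week was 2.64 and its call ended (edgeR adjusted p = 0.0708). It was higher in both arms at 1 week than directly after ultrasound.

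Among genes highest at 4 weeks, PGSC0003DMG400029107 (chromosome 5, 13676424 to 13678535) had 92.2, 67.8, 88.7, 89 and 117 CPM in control and 1936, 69.7, 152, 33.5 and 140 CPM in ultrasonicated explants. The arms differed most at 1 week, at a ratio of 0.377 (0.364 to 0.39). The second, PGSC0003DMG400025390 (chromosome 11, 44427596 to 44430896), had 20.1, 42, 60.9, 60.7 and 68.5 CPM in control and 353, 22.2, 48.5, 43.9 and 83.7 CPM in ultrasonicated explants, and its 4-week level exceeded that at 24 h by 1.30 on the log2 scale (SE 0.30, edgeR adjusted p = 0.0281). The rise to 4 weeks with the smallest p was that of PGSC0003DMG400025737 (chromosome 1, 83440483 to 83444534), with 17.6, 5.14, 7.17, 10.2 and 34.7 CPM in control and 827, 6.39, 12.2, 11.6 and 28 CPM in ultrasonicated explants. It rose by 2.45 on the log2 scale (SE 0.32, edgeR adjusted p = 0.00687).

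The 12 genes that stayed below 1 CPM after 0 h had a median later level of 0.106 CPM. The largest levels among them were in PGSC0003DMG401023951 (chromosome 6, 30401091 to 30403179), with 0.831, 0, 0.121, 0.216 and 0.632 CPM in control and 34.8, 0.688, 0.629, 0 and 0.785 CPM in ultrasonicated explants. In PGSC0003DMG400014655 (chromosome 1, 88260213 to 88261601) control explants had 0.0442, 0.201, 0.65, 0.251 and 0.27 CPM and ultrasonicated explants 30.3, 0.314, 0.253, 0.253 and 0.0797 CPM. Neither passed 1 CPM in any library but ultrasonicated 0 h. The last gene inside the threshold, PGSC0003DMG400015184, had 1.48, 0.0752, 0.033, 0 and 0 CPM in control and 20.4, 0.00765, 0.0137, 0 and 0 CPM in ultrasonicated explants, its later values lying at a few counts or 0.

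Coordinates are as the deposited table gives them, on a build not named. Chromosome 9 held 24 members (14.5%; 7.24% of the 10485 gene models), chromosome 6 held 20 (12%; 9.28%) and chromosome 1 held 11 (6.63%; 13%). The members spanned fewer bases than the gene models. Their median span from start to end was 2114 bases, against 4337 for the gene models, and 42 (25.3%) spanned under 1000 bases, as did 6.44% of the gene models. The 29 members over 100-fold on the scale of the choice had a median span of 897 bases, and the 60 of 8 to 16-fold 3104 bases. All gene models compared had to reach 10 CPM in the ultrasonicated 0 h library, with no correction for length. Members could reach it through their rise there, and how far this limit sets the gap was not tested. The plus strand held 82 members (49.4%).

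Some members were neighbours. With at most 2 other gene models between consecutive ones, 50 members (30.1%) formed 20 runs, 5 of them with more than 2 members. The share that the same rule gives for other gene models was not computed, so these counts are a description of the members alone. A part of this is overlap, since 25 members overlap another feature, 23 of these on the opposite strand, and 19 overlap another member on the opposite strand. The sources do not give the strand setting of the counting. An opposite pair such as PGSC0003DMG400009145 and PGSC0003DMG400009173, with 196999 and 183953 counts in the ultrasonicated 0 h library, can therefore share reads. When overlapping members were merged the 166 became 155 loci, 11 runs held 30 of them (19.4%), and 3 runs had more than 2 loci.

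The longest run lies on chromosome 9 between 11625142 and 11685032, with 6 members on the minus strand that do not overlap each other. Its first, PGSC0003DMG400038479 (chromosome 9, 11625142 to 11625456), had 0.362, 0.209, 0.419, 0.0139 and 0.283 CPM in control and 178, 0.597, 1.46, 0.155 and 0.245 CPM in ultrasonicated explants. PGSC0003DMG400011627 (chromosome 9, 11631165 to 11631999) had 11.6, 5.91, 10.9, 3.85 and 6.58 CPM in control and 3079, 17.5, 32.5, 4.21 and 7.57 CPM in ultrasonicated explants. PGSC0003DMG400011628 (chromosome 9, 11636814 to 11637710) had 17.3, 5.31, 7.87, 1.09 and 7.38 CPM in control and 2503, 13.4, 23.8, 2.14 and 7.26 CPM in ultrasonicated explants. All 3 were highest at 48 h among the later times and higher in ultrasonicated than in control explants at 24 h, 48 h and 1 week. The fourth, PGSC0003DMG400011630 (chromosome 9, 11675983 to 11676827), had 5.1, 1.43, 2.78, 0.578 and 3.1 CPM in control and 1721, 5.56, 14.9, 1.67 and 3.66 CPM in ultrasonicated explants. PGSC0003DMG400011631 (chromosome 9, 11678942 to 11679778) had 4.18, 2.46, 3.63, 1.09 and 3.97 CPM in control and 1031, 5.2, 14.6, 3.33 and 3.44 CPM in ultrasonicated explants. PGSC0003DMG400011632 (chromosome 9, 11684152 to 11685032) had 12.3, 5.09, 7.62, 1.67 and 8.39 CPM in control and 3006, 12.2, 32.9, 5.55 and 10.6 CPM in ultrasonicated explants.

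At 48 h the ratios of the 6 genes of the chromosome 9 run were 3.49 (2.68 to 4.6), 2.98 (2.83 to 3.15), 3.03 (2.84 to 3.22), 5.38 (4.88 to 5.94), 4.01 (3.68 to 4.39) and 4.32 (4.07 to 4.59), so that every interval lay above 2. At 4 weeks they lay between 0.866 and 1.26. Over the 4 later times none of the 6 passed (edgeR adjusted p = 0.903 for each), with log2 differences from 0.88 to 1.56.

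A second run, of 5 members, lies on chromosome 6 between 56893292 and 56908742. PGSC0003DMG400030426 (chromosome 6, 56893292 to 56894077) had 56.9, 13.1, 25.2, 15 and 47.6 CPM in control and 5580, 25.5, 58.9, 17.9 and 67.7 CPM in ultrasonicated explants. PGSC0003DMG400030427 (chromosome 6, 56896895 to 56897612) had 11.6, 1.75, 3.59, 0.307 and 4.4 CPM in control and 2359, 4.63, 15.3, 1.49 and 3.91 CPM in ultrasonicated explants. Both are on the minus strand, and the other 3 are on the plus strand. PGSC0003DMG400030339 (chromosome 6, 56900911 to 56901677) had 16.8, 2.92, 8.27, 2.25 and 7.33 CPM in control and 5171, 9.44, 43.3, 5.72 and 5.65 CPM in ultrasonicated explants. PGSC0003DMG400030340 (chromosome 6, 56905147 to 56905872) had 13.7, 2.67, 2.29, 0.543 and 5.26 CPM in control and 1996, 3.23, 11.6, 1.99 and 5.67 CPM in ultrasonicated explants. PGSC0003DMG400030341 (chromosome 6, 56907909 to 56908742) had 15.6, 3, 3.07, 10.2 and 55.1 CPM in control and 3831, 4.11, 10.1, 5.73 and 40.5 CPM in ultrasonicated explants. This last gene differed from its neighbours in being highest, among the later times, at 4 weeks in both arms, 3.76 log2 units above 24 h (edgeR adjusted p = 0.0112). The treatment of reads that map to several places is not given in the sources used here, so the split of counts between such neighbours is uncertain if their sequences are near-identical.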

How the data were processed

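RNA was sequenced from 10 libraries, each a pool of 3 biological replicates, made with a stranded mRNA kit per the labels. The deposited values are raw counts for each feature, whole numbers without normalization by the authors as far as the values show. Reads were handled with HISAT2 2.1.0, Trim Galore 0.5.0 and FastQC 0.11.5, per the submitters' processing notes. Genome build, counting program and strand setting: not given in the sources used here.

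Members and comparisons were all chosen with earlier results of these data known. Counts were analysed in R 4.3.3 with edgeR 4.0.16 (filterByExpr, TMM, quasi-likelihood F-test, Benjamini-Hochberg adjustment at 0.05), and with limma-voom (limma 3.58.1) and DESeq2 1.42.0 as alternatives. Tests used the 8 libraries from 24 h on, since the 0 h libraries chose the members, with time and arm as additive terms. The 4 time pairs, or both arms of a time, stand in for replicates, so a p-value reflects how pooled libraries, not plants, vary. Ratios between single libraries carry exact 95% Clopper-Pearson intervals, for counting error only, since duplicate reads cannot be told from separate molecules. A count of 0 allows up to 3 counts. Only edgeR's test of the ultrasound effect was tried on simulated counts, with large known changes and no change over time. That trial does not bear on smaller differences, nor on the ratios, courses, time effect or interaction term.

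Named genes, ranked by CPM where a level is meant, are those with the largest 0 h ratio or level, at the threshold, with the highest later mean level per course, with the smallest p per test and direction, furthest from control at each time, and in the longest run. The second run, the genes highest outside the ultrasonicated 0 h library and those of the early-to-late pattern were named after their values were seen. The interaction term, the counts without overlapping features and the merging of overlapping members were also chosen after seeing the data.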

Additional observations from a re-analysis of the deposited data

Results flagged for a closer look

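In PGSC0003DMG400001372 the arms lay on opposite sides at different times: the ratio of ultrasonicated over control level was 59.1 at 24 h, 0.434 at 1 week and 0.0768 at 4 weeks. PGSC0003DMG400018965 likewise had a ratio of 21.7 at 24 h and 0.293 at 1 week. Each ratio comes from 1 library per arm, and the difference between these times was not tested for either pair of libraries alone.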

How the results depend on the processing

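The limits are those of 1 pooled library per arm and time: counting error is small, and the spread between plants cannot be seen. With the ratio set at 1.5-fold, 63 members were higher and 7 lower at 24 h (38.7% and 4.29%; 10.4% and 13.3% of all features), 70 and 15 at 48 h (42.9% and 9.2%; 8.73% and 11.4%), and 14 and 25 at 4 weeks (8.59% and 15.3%; 12.1% and 11.5%). At 4-fold, 9 were higher at 24 h (5.52%; 1.4% of all features), 8 higher and 3 lower at 48 h (4.91% and 1.84%; 0.295% and 0.827%), 6 and 11 at 1 week (3.68% and 6.75%; 2.27% and 3.68%), and 1 and 6 at 4 weeks (0.613% and 3.68%; 1.86% and 2.01%). Members below 1 CPM in all later libraries numbered 6 with a limit of 0.5 CPM and 22 with 2 CPM. A pseudocount of 5 CPM left 109 members, and the other pseudocounts and minimum levels tried gave 146 to 180. With TMM-scaled CPM, 228 gene models passed the 8-fold ratio. The 200 kept by the limit on group size included all 166. Merging overlapping members left 30 in runs.

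DESeq2 called 5 members for the ultrasound effect, 8 for the late minus early difference, 112 for the time effect (69.1%; 44% of all features), 17 higher and 2 lower at 48 h, 57 lower at 1 week (35.2%; 12.2%), and 23 higher and 46 lower at 4 weeks (14.2% and 28.4%; 15.3% and 18%), so that the 23 lie near the background. Leaving out a pair gave 41 (48 h), 41 (1 week) and 43 (4 weeks) for the time effect, and without the pair at 48 h the count lower at 1 week was 22. Leaving out 1 library at a time gave 25 to 58 for the time effect, 0 to 5 higher and 5 to 38 lower at 1 week, and 2 to 17 higher and 4 to 28 lower at 4 weeks. The cause was not tested, beyond fewer libraries being fitted. For the time effect the count over all features fell in each of these fits as well. From 24 h to 4 weeks the members' median log2 change of -0.16 turned to 0.01 with total counts, where all features had 0.23. Without ultrasonicated 4 weeks it was -0.01, the same as for all features. Of the named genes, DESeq2 called PGSC0003DMG400000444 (0.86) and PGSC0003DMG400009509 (0.99) for the ultrasound effect and PGSC0003DMG400020107 (1.39) and PGSC0003DMG400006369 (-1.14) at 48 h, and the rise of PGSC0003DMG400009514 ended without ultrasonicated 24 h (2.64). The arms were paired by time in the ultrasound effect. Without that time block 0 members were called as well, and 4 had an unadjusted p under 0.05, all higher (2.47%; 0.232% of all features), in place of 31.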
